A study of Brassica napus with 45 samples.

Results

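A stretch of chromosome A09 and a stretch of chromosome C08 of Brassica napus are described here, in which untreated wild type libraries of a leaf RNA sequencing study differed among themselves. The A09 segment held the genes with running numbers 6431 to 7207 and the C08 segment those with 5062 to 5298, where the running number is the part of the identifier that counts genes along a chromosome and is not a base coordinate. Together they held 1014 of the 100919 genes listed in either of the data blocks used, 777 on A09 and 237 on C08. The members were chosen from measured values, namely the difference between untreated knockout and untreated wild type leaves, so that difference is described below and not tested. The identifiers carry no gene names in the files, so genes are given by identifier and no function is stated for them.

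Brassica napus, or rapeseed, carries an A subgenome and a C subgenome that descend from related parent species, so most genes have a counterpart of similar sequence on the other subgenome. Related A and C chromosomes can pair in meiosis and exchange segments, after which a plant carries extra copies of a stretch from one subgenome and fewer or none from the other. The far ends of A09 and C08 are known to contain related gene content. In leaf RNA, a change of copy number over a stretch appears as a run of neighbouring genes shifted the same way, but RNA levels do not measure copy number, and whether copy number bears on the values below was not tested.

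RNA was sequenced from leaves of seedlings grown in nutrient solution, in 15 groups of 3 libraries. The knockout experiment compared a line in which the NAC-type transcription factor gene BnNAC038 was knocked out (a single line, KO-1) with wild type, and the overexpression experiment compared overexpression lines 1 and 2 with a wild type of their own, whose columns carry another name. Leaves of every genotype were taken after 50 µM ABA (the stress hormone abscisic acid) for 3 h, after 20% PEG (polyethylene glycol, which withdraws water) for 6 h, and untreated. The labels number 3 biological replicates per group without saying whether each was a separate plant or a pool, so p-values measure the spread between libraries only, and the promoter of the overexpression lines is not given in the sources used here. The BnNAC038 gene itself could not be found by name and was not analysed here.

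The knockout experiment lists 857 of the members (659 on A09 and 198 on C08) as a normalized value per gene, and 464 passed a filter that asked for 1 or more in 3 or more of the 18 libraries. The overexpression experiment lists all 1014, as TPM summed over transcripts, and 521 passed the same filter in its 27 libraries. Libraries of the knockout experiment had between 33267 and 39156 genes at a value of 1 or more and those of the overexpression experiment between 38105 and 41754. Read numbers are not in the files, so the depth is unknown.

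Along the A09 segment the untreated difference changed direction, and a running median over 21 tested genes divided it into 4 runs. The first run covered numbers 6431 to 6699 (237 genes listed, 134 tested) and the middle run 6700 to 6813 (97 listed, 58 tested). The second run covered 6814 to 6995 (155 listed, 84 tested) and the end run 6996 to 7207 (170 listed, 91 tested). The C08 segment was a single run of 198 listed and 97 tested genes. The median log2 difference, knockout minus wild type in untreated leaves on the log2(value + 1) scale, was -0.57 in the first run, -0.15 in the middle run, -0.56 in the second run, 0.89 in the end run and 0.89 in the C08 run, against -0.05 over all 42926 genes tested. Untreated wild type leaves thus had higher values than the knockout in the first and second runs of A09, and lower values in the end run of A09 and on C08.

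**Figure D1:**
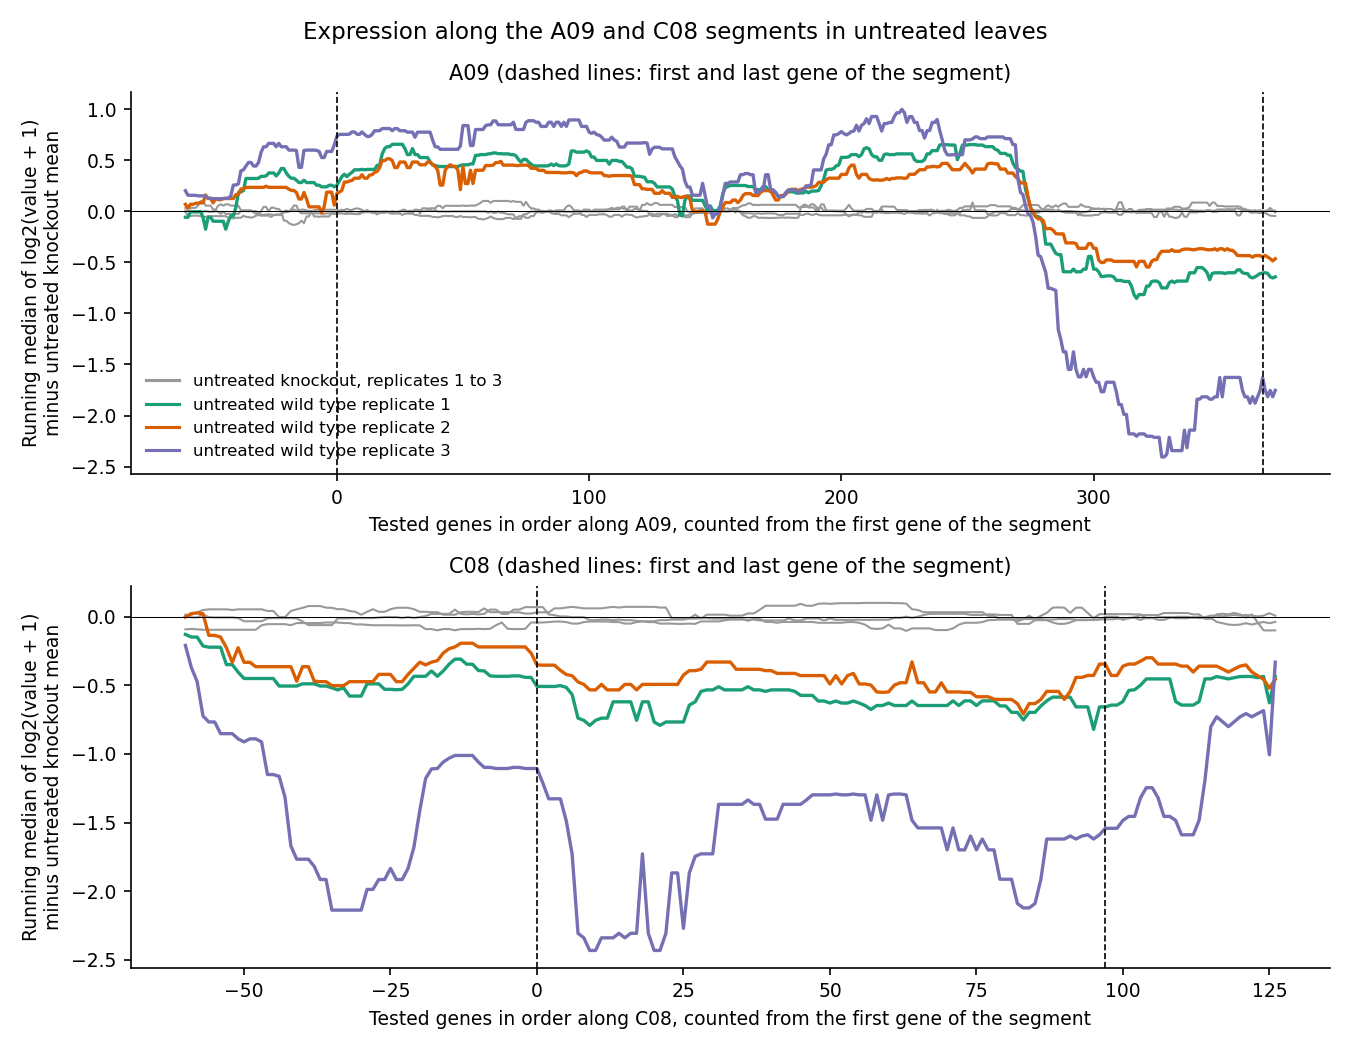
Running median, over 21 tested genes, of log2(value + 1) in each untreated library of the knockout experiment minus the mean of the 3 untreated knockout libraries, along A09 (top) and C08 (bottom). The grey knockout libraries stay near 0, and wild type replicate 3 lies furthest below 0 at the end of A09 and all along C08 and furthest above 0 in most of the first and second runs of A09.

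In the end run and on C08 the untreated knockout libraries stayed close together and the untreated wild type libraries did not. The values of the end run summed to 607, 619 and 622 in untreated knockout replicates 1 to 3, against 328, 404 and 38.3 in untreated wild type replicates 1 to 3. The C08 run summed to 979.5, 1008.6 and 954 in the untreated knockout, against 479, 603 and 48.7 in untreated wild type. In both runs all 3 wild type libraries lay below all 3 knockout libraries, and wild type replicate 3 lay far below wild type replicates 1 and 2. Whether fewer cells expressing these genes or less RNA per cell underlies a lower value in whole leaves cannot be told apart.

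The first and second runs of A09 had the opposite order. The first run summed to 3181.9, 3385.5 and 2868.3 in the untreated knockout, against 4793.8, 4270.7 and 4935.9 in untreated wild type. The second run summed to 686, 683 and 669 in the untreated knockout, against 1106.3, 995 and 1193.7 in untreated wild type. No wild type library overlapped the knockout libraries in either run, and replicate 3, lowest at the end of A09 and on C08, was the highest of the 3. The middle run summed to 2064.3, 2156.6 and 1822.5 in the untreated knockout, against 2395.9, 2314.9 and 2131.1 in untreated wild type, and here the groups overlapped.

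Expressed as a percentage of the untreated knockout mean, wild type replicates 1, 2 and 3 stood at 53.2%, 65.6% and 6.22% in the end run. On C08 they stood at 48.8%, 61.5% and 4.96%. The first run gave 152%, 136% and 157%, and the second run 163%, 147% and 176%. Replicate 3 was thus the library furthest from the knockout in each of these runs and replicate 2 the nearest, in opposite directions in the raised and the lowered runs. Over all 5 runs summed, the wild type libraries stood at 122%, 115% and 112% of the knockout mean.

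**Figure D2:**
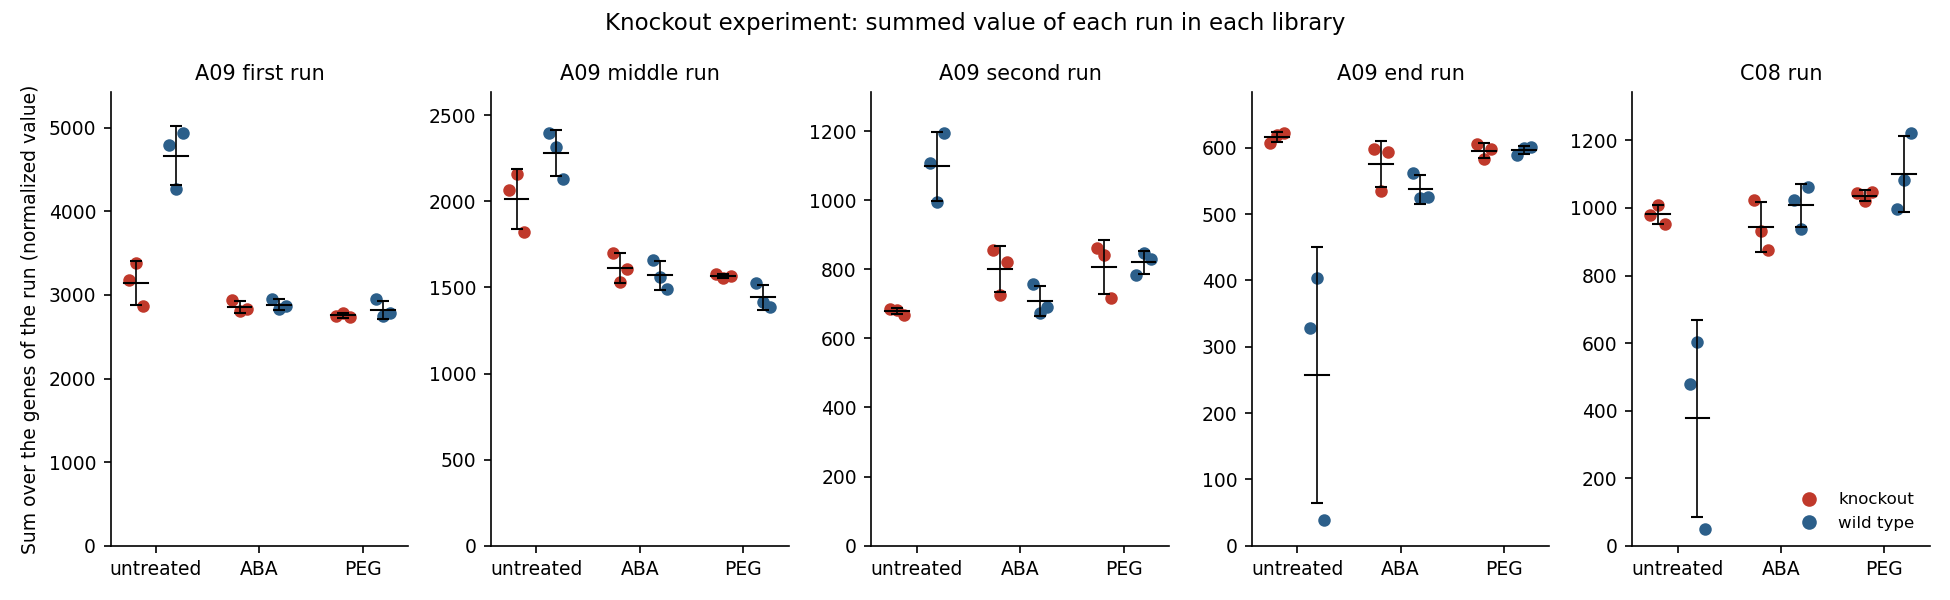
Summed normalized value of the listed genes of each run in each library of the knockout experiment (points), with the group mean and SD (lines, n = 3), for knockout and wild type leaves untreated, after ABA and after PEG. The untreated wild type stands apart in the first, second and end runs of A09 and on C08, and wild type leaves under ABA and PEG do not.

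In the end run and on C08 no other group had libraries as far apart as those of untreated wild type. The highest library exceeded the lowest by a factor of 10.5 in the end run and 12.4 in the C08 run in untreated wild type leaves. In the 5 other groups of the knockout experiment that factor reached at most 1.12 in the end run and 1.22 in the C08 run. In the 9 groups of the overexpression experiment it reached at most 1.11 and 1.17. The segments were chosen with the untreated libraries of the knockout experiment in view, so these factors describe the members and were not tested. The sums of the raised runs of A09 differed among untreated wild type libraries by factors of 1.16 (first run) and 1.2 (second run). In other groups the factor reached 1.21 and 1.24, so the sums over all listed genes of these runs did not stand apart by it. The first-run sum depends on its gene with the highest mean. Without that gene, the untreated wild type libraries lay further apart than those of any other group, between 2007 and 2572.7. Untreated knockout libraries then lay between 1409.3 and 1527.2, and PEG-treated wild type libraries between 1267.6 and 1439.1.

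Wild type leaves given ABA or PEG had end-run and C08 sums that overlapped those of the knockout given the same. The end run summed to 576 ± 35.5 in ABA-treated knockout leaves and 537 ± 21.7 in ABA-treated wild type leaves, and to 596 ± 11.9 in PEG-treated knockout leaves and 597 ± 6.37 in PEG-treated wild type leaves (SD, n = 3 each). The C08 run summed to 944 ± 73.6 in the knockout and 1008 ± 63.2 in wild type under ABA, and to 1036.8 ± 15.4 in the knockout and 1100.3 ± 113 in wild type under PEG. Of the 5 runs under either treatment, only the middle run under PEG had library sums that did not overlap, with 1566.9 ± 11.3 in the knockout and 1442.3 ± 71.6 in wild type. These sums carry no p-value, because the members were chosen with the untreated libraries in view.

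Single genes showed that the low sums did not come from a few abundant members. The shares that follow use the genes with a mean of at least 5 over the 12 treated libraries of the knockout experiment, a level limit that does not use the untreated libraries, although the segments and runs were chosen from them, and give the untreated wild type value as a percentage of the untreated knockout mean. Among 27 such genes of the end run the median share was 54.4% in wild type replicate 1, 72.5% in replicate 2 and 0.249% in replicate 3. Among 33 such genes of the C08 run it was 47.4%, 63.3% and 0.108%. The 16462 such genes outside the segments had median shares of 103%, 105% and 107%, so the genome as a whole was not low in these libraries.

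In wild type replicate 3, 22 of the 27 end-run genes and 29 of the 33 C08 genes lay under 10% of the knockout mean, against 0.794% of all such genes. Of these genes 13 in the end run and 13 in the C08 run were listed at 0 in replicate 3. In replicates 1 and 2 none of the 27 and 1 of the 33 lay under 10%, against 0.235% and 0.241% of all such genes. That C08 gene, BnaC08G0522200ZS, had 0, 0.0462 and 0 in the untreated knockout, against 0, 0 and 0.0955 in untreated wild type, so its share divides by a value near 0. Replicate 3 was the lowest of the 3 libraries at 27 of 27 end-run genes and 32 of 33 C08 genes, BnaC08G0522200ZS being the exception, against 34.1% of other genes. Replicate 1 was below replicate 2 at 21 of 27 and 26 of 33, against 53.3% of other genes.

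Most genes of the raised runs moved together as well. Median shares were 152%, 146% and 198% in replicates 1, 2 and 3 over 50 genes of the first run, and 161%, 146% and 185% over 30 genes of the second run. Replicate 3 was the highest of the 3 libraries at 43 of the 50 and 23 of the 30 genes, against 41.8% of other genes. Shares above 125% were found at 44, 37 and 47 of the 50 genes and at 25, 24 and 25 of the 30 genes in replicates 1, 2 and 3, against 17.6%, 23.5% and 23.7% of all such genes. The 29 genes of the middle run had medians of 117%, 112% and 115%, between those of the raised runs and of the genes outside the segments. In replicates 1, 2 and 3, 10, 6 and 12 of them lay above 125%. In replicate 2 that was 20.7% of the run, below the 23.5% of all such genes. All 3 wild type libraries lay above all 3 knockout libraries at 41 of 50 genes of the first run and 23 of 30 of the second run, against 18.3% of all such genes, and below them at 20 of 27 end-run and 26 of 33 C08 genes, against 6.94%. As the rule used this contrast, these counts describe the members and support nothing further.

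**Figure D3:**
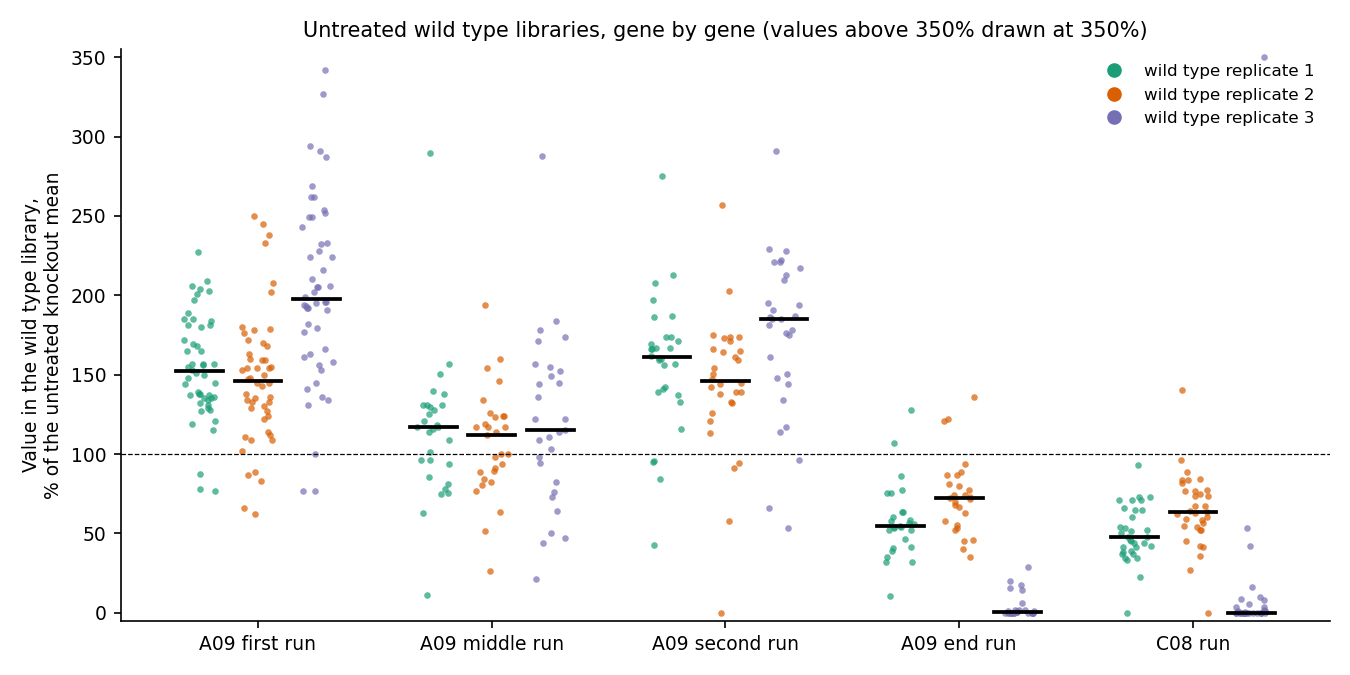
Value of each gene with a mean of at least 5 over the treated libraries, in untreated wild type replicates 1, 2 and 3, as a percentage of the untreated knockout mean (points, with the median as a bar; the dashed line marks 100%). Replicate 3 falls near 0% in the end run of A09 and on C08, where replicates 1 and 2 centre on 54.4% and 72.5% and on 47.4% and 63.3%.

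In the ABA and PEG libraries the same genes gave shares near 100%. Wild type replicates had median shares of 86.8% to 92.9% under ABA and 91.4% to 104% under PEG in the end run, each set against the knockout mean of the same treatment. On C08 the medians lay between 102% and 104% under ABA and between 101% and 112% under PEG. The first and second runs gave 89.7% to 94.8% under ABA and 96.9% to 112% under PEG. Of these genes in the 5 runs, 0 lay under 10% in any treated wild type library.

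The most abundant genes of the end run show the pattern library by library. BnaA09G0709100ZS had 103, 115 and 107 in untreated knockout replicates 1 to 3, against 58.6, 62.9 and 0 in untreated wild type. BnaA09G0706100ZS had 66.3, 70.1 and 70.7 in the knockout, against 44, 55.3 and 0.518 in wild type. In both, replicate 3 was near 0 and the groups did not overlap. Under ABA BnaA09G0709100ZS averaged 78.5 ± 16.7 in ABA-treated knockout leaves and 83.5 ± 6.88 in ABA-treated wild type leaves (SD, n = 3 each). BnaA09G0714400ZS had 20.9, 20.9 and 17.6 in the untreated knockout, against 9.18, 10.5 and 0 in wild type. BnaA09G0711500ZS kept a measurable value in replicate 3, with 26.8, 22 and 23.4 in the knockout, against 12.5, 11.1 and 3.49 in wild type.

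On C08 the same order held for abundant genes, with an exception. BnaC08G0510600ZS had 255, 258 and 215 in the untreated knockout, against 101, 132 and 0.0519 in untreated wild type. BnaC08G0510700ZS, its neighbour in the numbering, had 107, 68.4 and 85.9 in the knockout, against 56.4, 73.1 and 0.057 in wild type, where replicate 2 lay within the knockout range. BnaC08G0509900ZS had 45.4, 50.1 and 47.8 in the knockout, against 34, 30.6 and 20.1 in wild type, so that replicate 3 was lowest but far from 0. BnaC08G0507100ZS had 16.3, 18.4 and 22.4 in the knockout, against 12.5, 14.3 and 0.247 in wild type.

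BnaC08G0507100ZS was also the C08 gene with the highest mean over the experiment, and both treatments raised it in knockout leaves. It had 312, 219 and 128 in ABA-treated knockout leaves and 280.2, 223 and 338 in ABA-treated wild type leaves. In the knockout it rose by 3.38 ± 0.67 under ABA and by 3.14 ± 0.67 under PEG on the log2 scale (SE), with limma adjusted p-values of 7.96e-04 and 9.46e-04 over all genes tested. BnaA09G0648600ZS of the first run moved the same way under treatment and the other way in untreated wild type: it had 22.1, 19.9 and 24.2 in the untreated knockout, against 44.7, 51.5 and 55.6 in untreated wild type, and under ABA it rose in the knockout by 2.84 ± 0.26 on the log2 scale (SE, limma adjusted p = 8.62e-07).

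In the first run a single gene, BnaA09G0666300ZS, made up more of the sum than all other members together in the untreated knockout. It had 1654.7, 1931.2 and 1459.1 in the untreated knockout, against 2618.1, 2263.7 and 2363.2 in untreated wild type. Without it the first run averaged 1463.6 in the untreated knockout and 2251.8 in untreated wild type, still with no overlap of library sums. BnaA09G0693200ZS of the second run had 22.9, 23.9 and 25.5 in the knockout, against 51.5, 49 and 70.1 in wild type, and BnaA09G0684100ZS had 29.1, 27.8 and 28.3, against 47, 39.2 and 54.1. BnaA09G0684200ZS, the neighbour of BnaA09G0684100ZS in the numbering, had 71.5, 71.5 and 77.6 in the knockout, against 153, 129 and 109 in wild type, so replicate 3 was here the lowest of the raised libraries. The middle run was led by BnaA09G0675700ZS, with 1630, 1724 and 1375.8 in the knockout, against 1865.4, 1795.4 and 1549.9 in wild type, where the groups overlapped.

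On A09 the change from raised to lowered genes came within a few expressed genes. BnaA09G0698100ZS had 10.2, 12.2 and 11.4 in the untreated knockout, against 18, 16 and 24.4 in untreated wild type. BnaA09G0698300ZS had 17.1, 16.7 and 14.2 in the knockout, against 26, 23.2 and 31.2 in wild type, or 162%, 145% and 195% of the knockout mean. These were raised, with replicate 3 highest. BnaA09G0698500ZS had 90, 77.8 and 65.8 in the knockout, against 133, 133 and 88.8 in wild type, or 171%, 171% and 114% of the knockout mean. Here replicate 3 was the lowest of the wild type libraries and lay within the knockout range. BnaA09G0698700ZS had 8.83, 7.47 and 9.75 in the knockout, against 8.25, 14.3 and 5.74 in wild type, with no common direction. The next abundant gene on the far side, BnaA09G0702800ZS, had 41, 36.3 and 38.7 in the knockout, against 13.7, 27.1 and 0 in wild type, or 35.4%, 70% and 0% of the knockout mean.

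The tested genes on either side of each limit of the rule had the values that follow. At the start of A09 the last tested gene outside, BnaA09G0642700ZS, had 1.73, 1.63 and 2.28 in untreated knockout leaves, against 2.37, 1.69 and 3.33 in untreated wild type leaves. The first inside, BnaA09G0643100ZS, had 2.8, 1.3 and 2.13 in the knockout, against 5.07, 5.31 and 6.49 in wild type, so the groups overlapped outside and not inside. At the end of A09 the last gene inside, BnaA09G0720700ZS, had 14.2, 10.5 and 17.7 in the knockout, against 3.05, 2.71 and 3.1 in wild type, with no drop in replicate 3. The first outside, BnaA09G0720800ZS, had 5.88, 6.9 and 6.47 in the knockout, against 4.16, 3.97 and 0.386 in wild type.

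At the start of C08 the last gene outside, BnaC08G0505700ZS, had 6.13, 5.56 and 6.46 in the knockout, against 2.73, 4.23 and 0 in wild type. The first inside, BnaC08G0506200ZS, had 17.7, 17.9 and 16.9 in the knockout, against 6.79, 11 and 1.39 in wild type. Replicate 3 was lowest on both sides of this limit. At the other end BnaC08G0529800ZS inside had 1.37, 1.08 and 1.67 in the knockout, against 0.64, 0.745 and 0 in wild type, and BnaC08G0529900ZS outside had 1.52, 0.827 and 2.14, against 2.31, 1.57 and 0. Both were listed at 0 in replicate 3, and only the gene inside was below the knockout in all 3 wild type libraries.

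Outside the limits the lowered stretch of C08 ran on in both directions. Each stretch below was followed outward while the running median of the untreated knockout minus wild type difference stayed past 0.2 (log2). Their direction was fixed by that choice, so the values describe these stretches and support nothing further. Genes 4911 to 5061 summed to 847, 805 and 684 in the untreated knockout, against 526, 600.2 and 208 in untreated wild type. Genes 5299 to 5349, the last listed on C08, summed to 1912.9, 2273.1 and 1739.5 in the knockout, against 1086.4, 1515 and 45.4 in wild type. The genes there with a mean of at least 5 over the treated libraries were also compared in replicate 3. Of these, 12 of 20 before and 10 of 12 after the segment lay under 10% of the knockout mean, against 0.794% of all such genes. On A09 genes 7208 to 7214 summed to 133, 118 and 108 in the knockout, against 70.1, 85.8 and 2.7 in wild type, near the highest number listed on that chromosome, 7218. Genes 6334 to 6430, ahead of the A09 segment, summed to 261, 263 and 254 in the knockout, against 319, 284 and 364 in wild type, with no overlap. Over 15 genes there with a mean of at least 5, median shares were 146%, 132% and 162% in replicates 1, 2 and 3. Followed in this way, the raised stretch of A09 also began ahead of the rule's limit.

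The start of the lowered stretch of C08 could be followed from gene to gene. BnaC08G0487200ZS had 24.8, 23.7 and 24.2 in the untreated knockout, against 32.8, 31.7 and 33.2 in untreated wild type, with no low library. BnaC08G0493000ZS had 9.41, 13 and 14.4 in the knockout, against 4.54, 6.97 and 0.561 in wild type. BnaC08G0493500ZS had 61.7, 75.3 and 64.3 in the knockout, against 50.5, 43.3 and 19 in wild type, and BnaC08G0495300ZS had 4.29, 5.01 and 4.27, against 2.04, 2.9 and 0.0217. The fall in replicate 3 therefore began ahead of the rule's limit, and it was not equally deep at every gene.

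By the limma call at an adjusted p under 0.05 over all genes, 67 of the 464 tested members were higher and 92 lower in untreated knockout than in untreated wild type, against 0.96% higher and 1.49% lower of all genes. The lower calls were 56 in the first run, 2 in the middle run, 33 in the second run and 1 in the end run, and the higher calls were 28 in the end run and 39 on C08. This contrast chose the members, and nothing is read from these counts. The median standard error of the log2 difference was 0.27 in the end run and on C08, against 0.16 over all genes tested, and since all groups of the experiment share 1 estimate of the spread, this wider error also enters the comparisons under ABA and PEG.

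The comparisons that follow do not include the untreated wild type of the knockout experiment as a group. Under ABA, 3 of the 464 members were higher and 0 lower in knockout than in wild type leaves, against 1.26% and 0.683% of all genes, and 39 (8.41%) had an unadjusted p under 0.05, against 15.2% of all genes. Under PEG, 0 were higher and 1 lower, against 0.727% and 0.601%, and 27 (5.82%) had an unadjusted p under 0.05, against 10.3% of all genes. With the 3 untreated wild type libraries left out of the fit, 4 of 454 members were called under ABA and 0 under PEG, against 1.88% and 1.29% of all genes. Median log2 differences per run lay between 0.03 and 0.1 under ABA and between -0.04 and 0.01 under PEG, against 0.05 and 0 over all genes. Leaving out single libraries gave 0 calls under ABA without knockout replicate 3, 10 without knockout replicate 2 and 1 without any single wild type replicate, and between 0 and 4 under PEG. The shares of members called were thus near or below the background, and the run medians stayed close to 0.

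The 3 members higher in ABA-treated knockout leaves lay apart from each other in the first and middle runs. BnaA09G0678200ZS had 18.9, 13.6 and 23.1 in ABA-treated knockout leaves, against 9.49, 6.37 and 8.62 in ABA-treated wild type leaves, with no overlap. Its log2 difference was 1.08 ± 0.22 (SE, limma adjusted p = 0.0146). BnaA09G0673600ZS had 5.2, 4.5 and 9.85 in the knockout, against 2.42, 2.43 and 1.77 in wild type, a difference of 1.17 ± 0.26 on the same scale (SE, limma adjusted p = 0.0301). The third, BnaA09G0660700ZS, averaged 6.24 in the knockout and 2.64 in wild type and differed by 0.98 ± 0.2 (SE, limma adjusted p = 0.0151).

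The gene called lower in PEG-treated knockout leaves, BnaA09G0653800ZS, rose under PEG in knockout leaves by 1.83 ± 0.34 on the log2 scale (SE, limma adjusted p = 3.62e-04). It had 4.71, 2.85 and 1.06 in PEG-treated knockout leaves, against 4.98, 8.46 and 16.7 in PEG-treated wild type leaves, and its log2 difference was -1.49 ± 0.34 (SE, limma adjusted p = 0.0444). The libraries of each group lay far apart, and no member was called with a pseudocount of 0.1, a stricter filter, quantile normalization or without the untreated wild type libraries. In PEG-treated leaves of the overexpression experiment its values were 24.1, 37.8 and 29.8 TPM in line 1, 29.9, 17 and 22.7 TPM in line 2, and 10.8, 1.67 and 8.42 TPM in wild type. It was higher by 2.22 ± 0.32 on the log2 scale in line 1 (SE, limma adjusted p = 5.09e-05) and 1.83 ± 0.32 in line 2 (limma adjusted p = 4.72e-04). In untreated leaves of every genotype it was at or near 0.

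**Figure D4:**
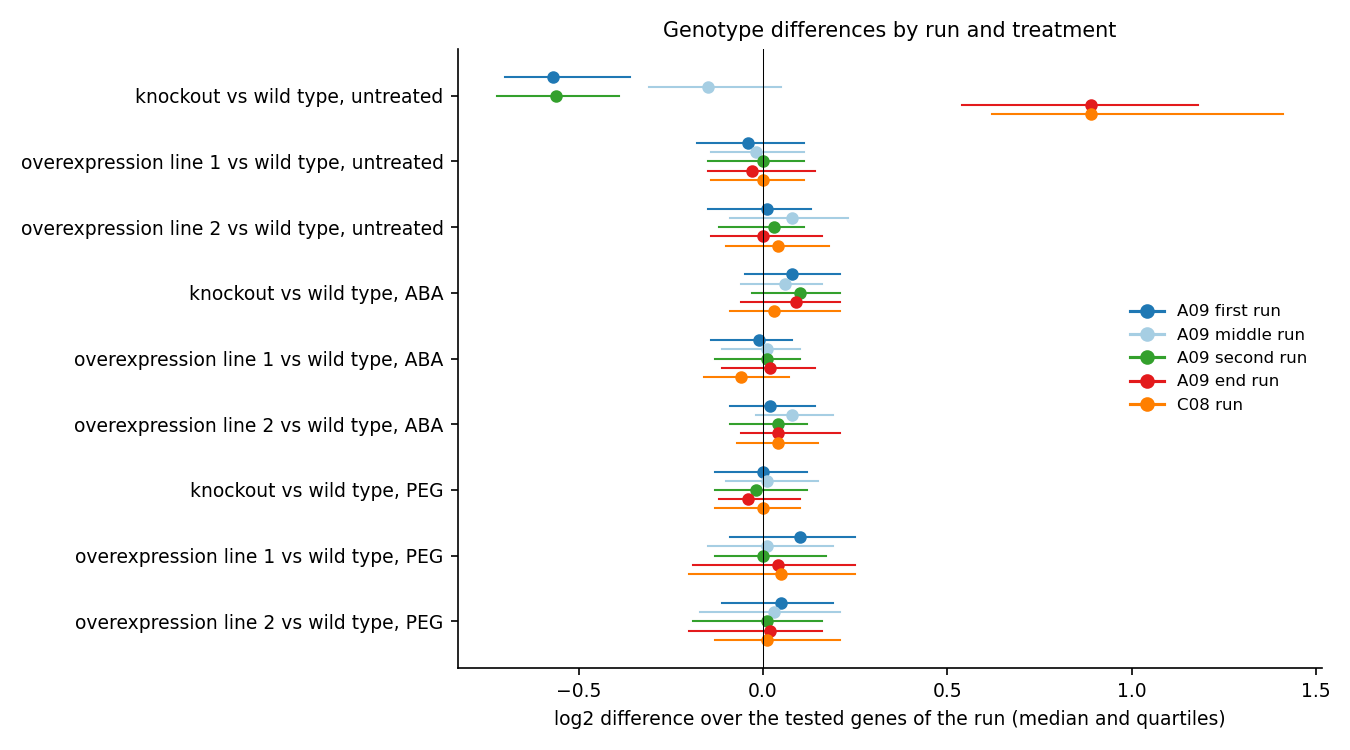
Median log2 difference, mutant or line minus wild type, over the tested genes of each run (points) with the quartiles (lines), for each genotype comparison. Apart from untreated knockout against wild type, which chose the members, every median lies between -0.06 and 0.1.

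In the overexpression experiment the libraries of each group lay close together. In untreated leaves the end run summed to 1038.2 ± 17.4 TPM in line 1, 1041.3 ± 33.8 TPM in line 2 and 1060.8 ± 44.8 TPM in wild type (SD, n = 3 each). The C08 run summed to 1702.3 ± 36.5 TPM in line 1, 1827.1 ± 144 TPM in line 2 and 1885.4 ± 98 TPM in wild type, with no overlap between line 1 and wild type. No library of this experiment had the drop seen in untreated wild type replicate 3 of the knockout experiment. The experiments were normalized separately, so their levels are not compared.

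The first run summed to less in the lines than in wild type in untreated leaves. It had 2922.3, 2715.5 and 2923.9 TPM in line 1 and 2884.9, 2381.3 and 2747.5 TPM in line 2, against 3065.9, 3273.4 and 3329.5 TPM in wild type, with no overlap. Most of that difference lay in BnaA09G0666300ZS, which averaged 1081.1 ± 109 TPM in line 1, 862 ± 185 TPM in line 2 and 1316.7 ± 114 TPM in wild type. Without this gene the line sums were 0.93 and 0.949 times that of wild type in lines 1 and 2, still with no overlap. By limma, BnaA09G0666300ZS was lower in line 2 by a log2 difference of -0.63 ± 0.17 (SE, adjusted p = 0.0203), and its difference in line 1 was -0.29 ± 0.17 (limma adjusted p = 0.441). Under ABA the first run also summed to less in lines 1 and 2, at 0.891 and 0.894 times wild type, with no overlap. Without BnaA09G0666300ZS these ratios were 0.972 and 0.997, with overlap in line 2. Under PEG they were 1.03 and 0.984 with overlap, and 1.08 and 1.06 without BnaA09G0666300ZS, with no overlap.

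**Figure D5:**
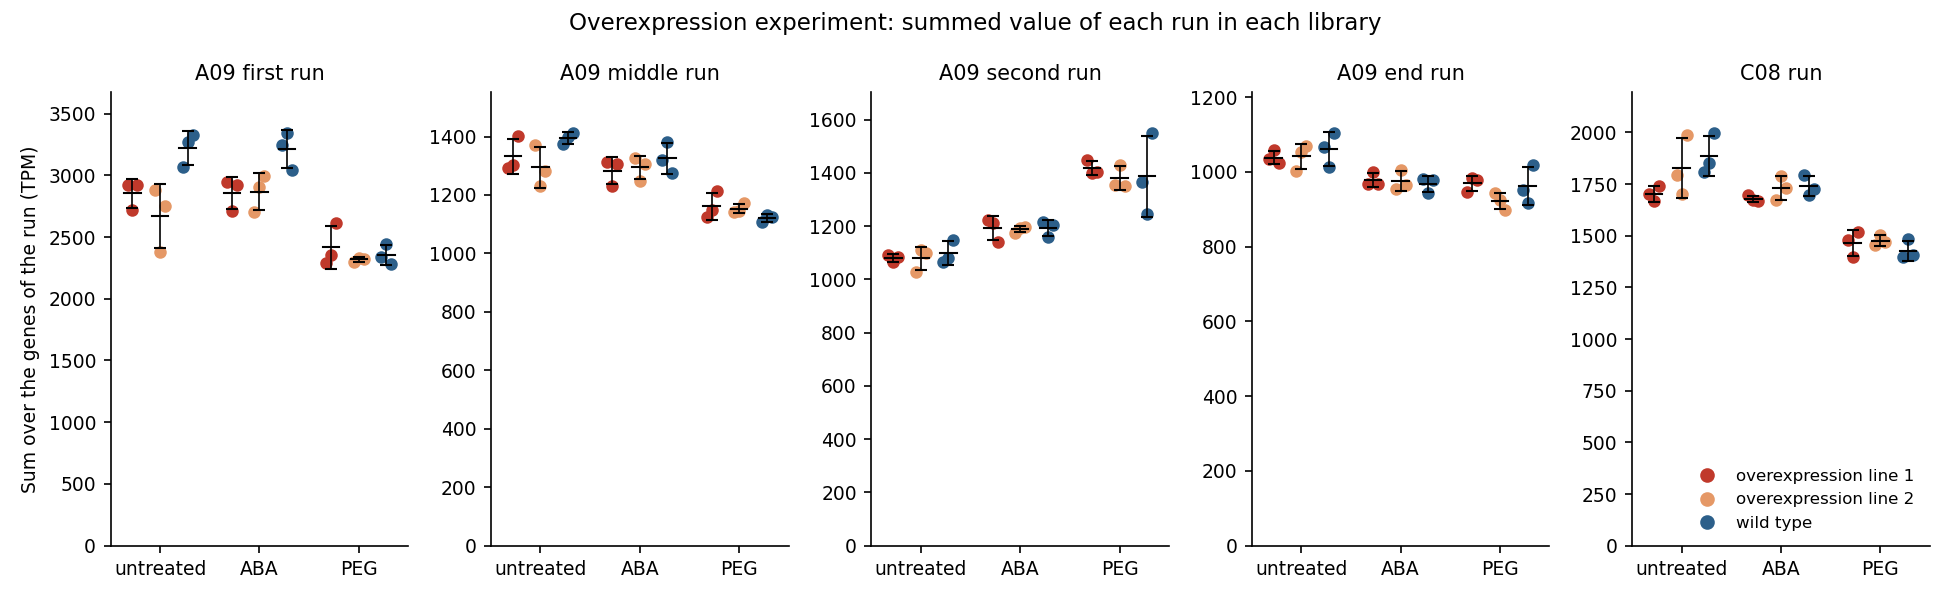
Summed TPM of the genes of each run in each library of the overexpression experiment (points), with the group mean and SD (lines, n = 3), for overexpression lines 1 and 2 and their wild type, untreated, after ABA and after PEG. No library stands apart in the end run of A09 or on C08, and the highest library exceeds the lowest of its group by at most 1.11 and 1.17 times there.

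Counts of members that differed between the lines and wild type were small in untreated and ABA-treated leaves. In untreated leaves 3 of 521 members were higher and 4 lower in line 1, against 2.31% and 2.28% of all genes. In line 2, 13 were higher and 7 lower, against 5.35% and 2.7%. Under ABA line 1 had 2 higher and 2 lower, against 1.02% and 1.35%, and line 2 had 6 higher and 2 lower, against 1.59% and 1.26%. All of these shares were below those of all genes. In untreated line 2 the 20 calls became 32 without line 2 replicate 3, and 5 without line 2 replicate 2. Both lines were set against the same wild type libraries.

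More members were called under PEG, and so were more of all genes. In PEG-treated leaves 39 members were higher and 21 lower in line 1, against 6.53% and 6.91% of all genes, and 23 were higher and 17 lower in line 2, against 5.41% and 5.22%. Of the 521 members these were 7.49% and 4.03% in line 1 and 4.41% and 3.26% in line 2. The share called higher was above that of all genes in line 1 and below it in line 2, and the share called lower was below it in both lines. The number called moved with single libraries. Leaving out wild type PEG replicate 3 gave 107 calls in line 1 and 83 in line 2, and there were 16 in line 1 without line 1 PEG replicate 2, and 19 in line 2 without line 2 PEG replicate 1. By run, line 1 had 12 higher and 5 lower in the first run and 11 higher and 6 lower on C08, and its median log2 differences lay between 0 and 0.1.

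A gene of the middle run, BnaA09G0676100ZS, was higher in both lines in untreated and in PEG-treated leaves. In untreated leaves it had 18.5, 18.5 and 23 TPM in line 1 and 40.6, 39.1 and 25.8 TPM in line 2, against 10.1, 8.15 and 9.48 TPM in wild type. Neither line overlapped wild type. The log2 difference was 1.03 ± 0.19 in line 1 (SE, limma adjusted p = 8.51e-04) and 1.8 ± 0.19 in line 2 (limma adjusted p = 6.45e-07). Under PEG it had 154, 205 and 125 TPM in line 1 and 157, 134 and 159 TPM in line 2, against 83, 63.5 and 113 TPM in wild type, with limma adjusted p-values of 0.00227 and 0.00518. Under ABA it was called higher in line 2 only, averaging 80.5 TPM against 49.4 TPM in wild type (log2 difference 0.69 ± 0.19, SE, limma adjusted p = 0.0435). BnaA09G0715800ZS of the end run was higher in untreated line 2, with 13.7, 22.3 and 13 TPM, against 7.87, 6.92 and 7.02 TPM in wild type (log2 difference 1.03 ± 0.22, SE, limma adjusted p = 0.00357).

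Members of all runs responded to ABA and PEG in the genotypes whose untreated libraries were level. In the knockout 53 members were higher and 98 lower under ABA, against 15% and 27.8% of all genes, and 136 were higher and 70 lower under PEG, against 35.3% and 21.8%. Of 464 members these were 11.4% and 21.1% under ABA and 29.3% and 15.1% under PEG, below the shares of all genes. With the untreated wild type libraries left out, 182 of 454 members (40.1%) were called under ABA and 244 (53.7%) under PEG, against 42.2% and 57.3% of all genes. In the wild type of the overexpression experiment 80 of 521 were higher and 102 lower under ABA, against 16.4% and 18.3%, and 216 were higher and 108 lower under PEG, against 39.8% and 22.4%, which was near the background. Median log2 changes of the runs lay between -0.16 and 0.16 in the knockout, where all genes had medians of -0.12 under ABA and 0.13 under PEG. The raised and the lowered runs did not have medians of opposite sign here.

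Strongly responding members lay in the raised and the lowered runs alike. BnaA09G0668600ZS had 47.6, 42.5 and 60 in ABA-treated knockout leaves, against 1.41, 1.83 and 2.23 in untreated knockout leaves, higher by 4.17 ± 0.3 on the log2 scale (SE, limma adjusted p = 7.36e-08). BnaC08G0522200ZS had 33.1, 31.6 and 5.47 under PEG in the knockout, against 0, 0.0462 and 0 untreated, higher by 4.25 ± 0.43 on the log2(value + 1) scale (SE, limma adjusted p = 1.62e-06). In the wild type of the overexpression experiment it had 58.3, 33.8 and 55.8 TPM under PEG, against 0, 0 and 0.0325 TPM untreated. BnaC08G0528500ZS had 3.89, 5.83 and 11.8 under ABA in the knockout, against 49.6, 72.5 and 56 untreated, and its change was -2.98 ± 0.87 on the log2 scale (SE, limma adjusted p = 0.0119). BnaA09G0720700ZS had 0.186, 0.528 and 0.607 under PEG, against 14.2, 10.5 and 17.7 untreated, a change of -3.38 ± 0.33 (SE, limma adjusted p = 1.18e-06). In all 4 genes the treated and untreated knockout libraries did not overlap.

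In the wild type of the knockout experiment, treatment responses rest on the untreated libraries that chose the members. Under ABA 130 members were higher and 197 lower, against 12.7% and 36.6% of all genes, and under PEG 182 were higher and 134 lower, against 33.5% and 26.2%. The calls followed the runs: under ABA 104 of 134 tested genes of the first run and 61 of 84 of the second run were lower, and 55 of 91 of the end run and 54 of 97 of C08 were higher. Under PEG 66 of 91 and 72 of 97 were higher in the end run and on C08. For these members a response to treatment and the standing apart of the untreated wild type libraries cannot be told apart, and nothing is read from these counts.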

How the data were processed

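The authors deposited a block of columns for each experiment. The knockout block is a normalized expression signal per gene, deposited with library sums of 760713 to 842688. The sources do not say if these are FPKM or TPM. The overexpression block is deposited TPM per transcript, as read from equal library sums, and was summed here to genes. The submitters' processing notes name kallisto 0.51.1, sleuth 0.30.1, HISAT2 and DESeq2 1.38.3, with no role given. The build is not given in the sources used here. Identifiers matched 0 of 123214 reference genes, so no names, coordinates or sequences are printed.

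Values were tested as log2(value + 1), which understates changes of low genes, with limma 3.58.1 in R 4.3.3 (empirical Bayes, mean trend, all groups of an experiment, no replicate block), for genes at 1 or more in at least 3 libraries, with Benjamini-Hochberg adjustment over all genes and a threshold of 0.05. The model was tested on simulated data. Runs of A09 were divided where the running median over 21 tested genes passed 0.3 on the log2 scale, with stretches under 15 genes joined to a neighbour of the same sign. Named genes are the 4 with the highest mean per run, those at the limits, and up to 2 called genes per direction and comparison with a 2-fold change. BnaA09G0660700ZS, and the genes followed at the turn of A09 and the start of the C08 stretch, were added after their values were seen. For overexpression line 2 the genotype field names differently numbered NAC genes, and the titles were followed. Members and lists were chosen with earlier results of these data known. Reads shared by similar A and C copies may have been divided between them in the authors' counting. Tables and plots were made in Python 3.11.15.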

Additional observations from a re-analysis of the deposited data

Results flagged for a closer look

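The A09 second run summed higher in treated than in untreated knockout leaves, at 1.18 times the untreated mean under ABA and 1.19 times under PEG, and lower in treated than in untreated wild type leaves of the knockout experiment, at 0.644 times under ABA and 0.747 times under PEG. The A09 end run moved the other way, at 0.935 and 0.967 times the untreated mean under ABA and PEG in the knockout, and 2.09 and 2.32 times in wild type. These were marked because every library of one genotype moved one way and every library of the other the opposite way. The difference between the genotypes was not tested, since the untreated wild type libraries in it are those that chose the members. Groups of 3 libraries are too small for the test of single outlying samples.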

How the results depend on the processing

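Alternatives were compared on counts of called members and on the untreated wild type sums as a share of the untreated knockout. Knockout against wild type under PEG (1 called) gave 0 with a pseudocount of 0.1, the stricter filter (5 or more), quantile normalization, the replicate block or the untreated wild type libraries left out, and 5 with no filter. Under ABA (3 called) quantile normalization gave 5. With the stricter filter, which tests fewer genes, the knockout response to ABA gave 82 (151 before) and to PEG 114 (206), line 1 untreated 4 (7), line 1 under ABA 2 (4), line 2 under ABA 4 (8), line 2 under PEG 26 (40) and the overexpression wild type under PEG 211 (324). With a pseudocount of 0.1, lines 1 and 2 under ABA gave 2 and 5. Line 2 under ABA gave 4 with no filter, 5 with quantile normalization and 3 without wild type ABA replicates 2 and 3, when the wild type response to ABA gave 112 (182). The cause was not tested. The share of the whole A09 segment was 129%, 143% as a median over genes and 123% without its most abundant gene, and that of the first run 148% and 164% as a median over genes.

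With one library left out at a time, the share ranged from 29.8% to 59.5% in the end run, 142% to 155% in the first run, 155% to 169% in the second run, 124% to 133% over A09 and 26.9% to 55.2% on C08. Calls ranged from 0 to 10 for knockout against wild type under ABA (10 without knockout replicate 2, 0 without knockout replicate 3) and 0 to 4 under PEG. They ranged from 3 to 7, 2 to 4 and 16 to 107 for line 1 untreated, under ABA and under PEG (16 without line 1 replicate 2, 107 without wild type replicate 3), and from 5 to 32, 3 to 5 and 19 to 83 for line 2 (5 without untreated line 2 replicate 2, 32 without replicate 3, 83 without PEG wild type replicate 3). Treatment responses ranged from 115 to 138 (ABA) and 164 to 207 (PEG) in the knockout, and from 143 to 168 and 270 to 315 in the overexpression wild type.

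Same-numbered replicates did not deviate together (correlations of -0.42 to 0.23, every one above 0.1 in 0 of 12 comparisons), so no pairing was used. With 3 libraries per group this check cannot exclude that same-numbered libraries share a batch. The replicate block gave 3 and 0 calls for the knockout against wild type under ABA and PEG, and moved no other count by over 1.5 times. Of the alternative values, 130 stayed within 1.5 times the count or within the spread between libraries and 54 did not. No read counts were available, so the depth limit of a value listed at 0 is unknown.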

Other observations

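Stretches of neighbouring genes that stood apart in the untreated wild type libraries were also found elsewhere in the genome, by the same running median passing 0.5 on the log2 scale against the untreated knockout mean. On A01 numbers 2034 to 2290 were higher in wild type replicate 3 by a median of 0.79, and on C01 numbers 2542 to 2948 were lower, at -1.57, and overlapping stretches were found in replicates 1 and 2 (0.81 and 0.78 on A01, -1.62 and -1.63 on C01). Unlike the A09 end run and the C08 segment, these stood at nearly the same level in all 3 libraries. A second stretch of A01 did not, with numbers 2380 to 2553 higher by 0.77 in replicate 1, 2394 to 2526 lower in replicate 2, at -0.6, and 2427 to 2521 lower in replicate 3, at -0.56.

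Elsewhere on A09, numbers 2735 to 3718 were higher in wild type replicate 1 by a median of 1.15, and numbers 2735 to 3714 were lower in replicate 2, at -0.64. Replicate 1 also stood apart on A05 (numbers 1933 to 3088, higher by 1.24) and on A06 (2017 to 2499, higher by 0.96), where replicate 2 was lower, at -0.64 and -0.66. Replicate 3 was lower over parts of the same 3 stretches, at -0.56 and -0.55 on A05 (2144 to 2409 and 2463 to 2846), at -0.54 on A06 (2022 to 2264) and at -0.53 and -0.51 on A09 (3218 to 3601 and 3638 to 3697). These differences between replicates were not tested. Values of the single knockout libraries over these stretches are not given here, so the levels stand only against the knockout mean.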
